A study of Rattus norvegicus with 3 samples.

Results

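Ionotropic glutamate receptors, metabotropic glutamate receptors and GABA-A receptors were described through the genes of their subunits, chosen by symbol: every gene whose symbol starts with Gria, Grin, Grik, Grid or Grm and a digit, or with Gabra, Gabrb, Gabrg, Gabrd, Gabre, Gabrp, Gabrq or Gabrr. The rule found 44 of the 30560 features. They are 3 AMPA, 7 NMDA, 5 kainate and 2 delta receptor subunits, 8 metabotropic receptors, 18 GABA-A subunits and Grid2ip, whose product binds a delta receptor and is no subunit. Over all barcodes 40 members had at least 30 UMIs (unique molecular identifiers, each standing for 1 captured RNA molecule). Over the neurons gated below 38 did, and 36 did over the neuron subtypes compared. Gabra6, Gabrp, Gabrq, Gabrr1, Gabrr3 and Grin3b had 7, 2, 7, 12, 28 and 7 UMIs in the gated neurons, and Gabrr2 and Grm6 fell under 30 in the subtypes. Gria3 and Gabre were not matched by symbol and were not analysed here.

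Single-nucleus RNA libraries came from the brains of female wild-type Crl:CD(SD) rats aged 12 weeks, taken 7 h after an intraperitoneal injection. The control rats received saline, a second group 5 mg/kg of LPS (lipopolysaccharide, a bacterial cell wall component that activates Toll-like receptor signalling), and the last 12 mg/kg of poly(I:C) (a synthetic double-stranded RNA that mimics viral infection). Nuclei of 4 rats were pooled into 1 library per treatment, made with the 10x 5' v2 kit, and no file tied nuclei to rats. Every treatment comparison therefore set 1 library against 1 library, no test or p-value was possible, and intervals cover counting error only. Values of the 3 libraries are given below in the order saline, LPS and poly(I:C).

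Fast excitation in the brain runs through tetrameric AMPA, NMDA and kainate receptor channels opened by glutamate, whereas metabotropic glutamate receptors act through G proteins. Fast inhibition runs through pentameric GABA-A receptor chloride channels, most often built of alpha, beta and gamma subunits, and the subunits in the channel set its kinetics, its place at or outside the synapse and its drug sensitivity. Neuron types differ in the subunits they transcribe, so receptor genes also describe neuron identity.

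After filtering, 17699, 9605 and 11740 nuclei remained, with medians of 1234, 2471 and 1326 UMIs, so the LPS nuclei were the most deeply sequenced. Barcodes shared between libraries numbered 247 to 550 a pair, and 7 occurred in all 3. Glutamatergic nuclei, gated by UMIs of markers that include no receptor gene, numbered 3706, 3198 and 2659, and GABAergic nuclei 1864, 1677 and 1558. Each of the 11 subtypes compared held between 61 and 603 nuclei in every library. Sst interneurons (38, 70 and 30 nuclei), dentate nuclei (46, 114 and 37) and cerebellar granule nuclei (0, 5 and 0) were too few and were not compared. Of the gated neurons, 41.3%, 48.6% and 44.0% fell in 1 of the 11 compared subtypes. Some shares were highest in the deep LPS library, and the part of depth in this was not tested: upper-layer nuclei were 2.83%, 6.97% and 4.32% of the glutamatergic nuclei and Rorb nuclei 3.99%, 7.505% and 4.63%. Others were not, such as layer 6 corticothalamic nuclei at 16.3%, 15.3% and 15.7%. The vesicular GABA transporter and the 2 GABA-synthesising enzymes (Slc32a1, Gad1, Gad2) gave 0, 1 and 1 UMIs in the Rorb nuclei and 97, 163 and 118 in the Drd1 striatal nuclei. These genes are among the markers that gate the GABAergic class, so this contrast follows from the gate and is no separate check. Endothelial nuclei (196, 127 and 67, with median depths of 862, 958 and 897 UMIs) should lack most of these receptors. They served as a measure of free RNA, which can come from glia as well as neurons. Neurons were deeper, with medians of 1707.5, 3366.5 and 1752 UMIs in glutamatergic and 1289.5, 2418 and 1246.5 in GABAergic nuclei. The endothelial level is therefore only a rough guide to free RNA in neurons. At the median over 36 members, the endothelial level was 21.6% of that in the median neuron subtype. It was higher in the poly(I:C) library for some genes, such as Gabra4 with 40.8, 20.9 and 221 CPM.

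Neuron subtypes differed widely in their receptor genes, whereas few members were 2-fold apart between treatments. Levels are counts scaled to the total UMIs of the pooled nuclei (CPM), compared across subtypes for 1 gene at a time, since gene lengths were not used. For 20 of 36 members the same subtype was highest in all 3 libraries, against 14.4% of the 12158 genes tested. For 16 of 36 the lowest of the 3 values in the highest subtype exceeded the highest value in the second, against 11.0% of all genes. Both shares rise with depth: among genes with at least 1000 UMIs they were 32.3% and 24.0% of 2570 genes, and 14 and 11 of 27 members. The mean over the 5 GABAergic subtypes was above that over the 6 glutamatergic subtypes in all 3 libraries for 14 members, against 31.9% of all genes, and below it for 17, against 20.4%. Thalamic nuclei were the subtype with most members at their highest mean (8), followed by Drd1 striatal and layer 6 corticothalamic nuclei (5 each). How all genes divide over the subtypes in this way was not counted.

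**Figure D1:**
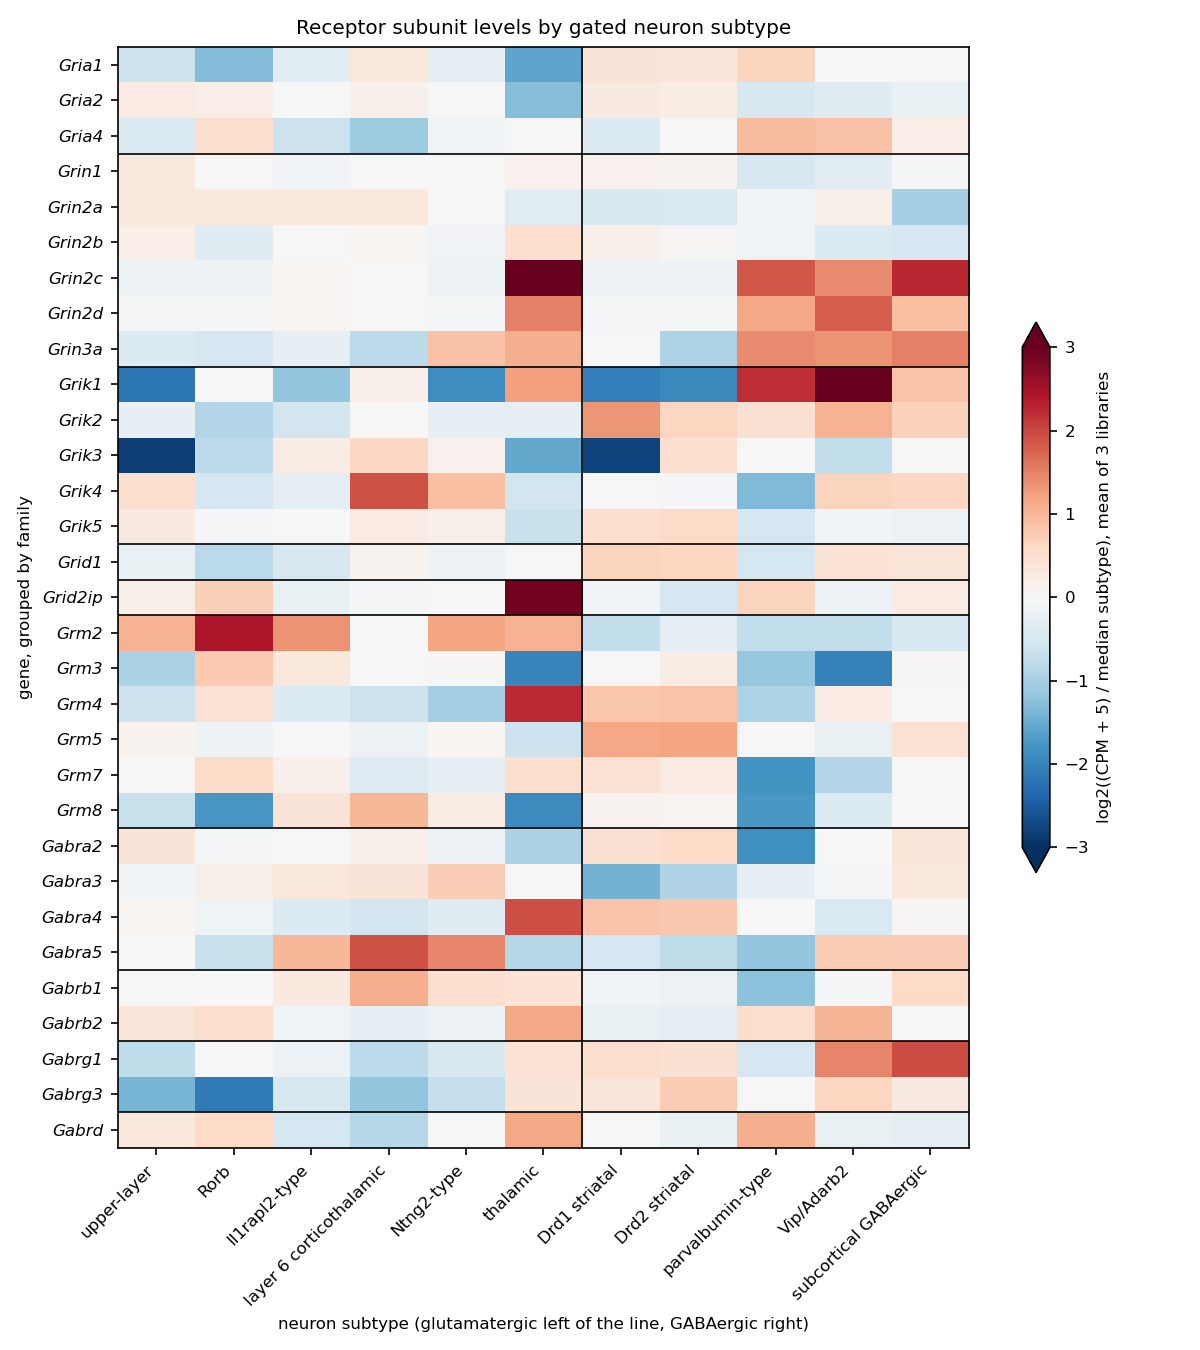
Rows are the receptor genes reported here with at least 30 UMIs over the compared subtypes, grouped by family, and columns are the 11 neuron subtypes; colour is the log2 ratio of the mean level over the 3 libraries (CPM + 5) to the gene's median subtype, clipped at 3 in either direction. Thalamic nuclei hold the strongest red for Grin2c, Grid2ip and Gabra4, and Grik1 stands out in Vip/Adarb2 nuclei.

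Of the AMPA receptor subunits, Gria1 and Gria4 were highest in parvalbumin-type nuclei, a class of fast-spiking cortical interneurons. Gria4, which gives AMPA receptors fast kinetics, was at 2446, 2888 and 2841 CPM there and at 2433, 2872 and 2427 CPM in Vip/Adarb2 interneurons. These values overlapped, and layer 6 corticothalamic nuclei were the lowest at 605, 666 and 741 CPM. Both interneuron subtypes exceeded every other compared subtype in all 3 libraries, and Sst interneurons were not compared. Gria1 was at 2311, 2270.0 and 2374 CPM in parvalbumin-type nuclei and at 597, 435 and 411 CPM in thalamic nuclei, with no overlap. Gria2, whose edited subunit keeps calcium out of the channel, varied least in the family: its highest subtype by mean, Drd1 striatal, held 1352, 1593 and 1691 CPM, 1.21 times the median subtype. Thalamic nuclei, with 594, 479 and 489.8 CPM, were below every other subtype in all 3 libraries.

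The obligatory NMDA receptor subunit Grin1 was the most even of its family, at 457, 395 and 431 CPM in upper-layer nuclei, its highest subtype by mean, and 226, 259 and 266 CPM in parvalbumin-type nuclei, its lowest by mean. A different subtype was highest in each library. The mean of the highest subtype was 1.22 times the median subtype. Grin2b, a subunit that gives slow channels and is prominent early in development, was at 2105, 2307 and 2218 CPM in thalamic nuclei, above the second subtype, upper-layer, in every library (1791, 1744 and 1817 CPM). Grin2a, which gives faster channels, was at 1472, 1475 and 1479.8 CPM in Il1rapl2-type nuclei, close to 1486, 1429.9 and 1467 in layer 6 corticothalamic nuclei, and at 691, 538 and 542 CPM in subcortical GABAergic nuclei. Grin2c, better known from cerebellar granule cells and astrocytes, was at 67.9, 79.9 and 93.6 CPM in thalamic nuclei (24, 47 and 13 UMIs). It gave 0 UMIs in every library in upper-layer, Rorb, Ntng2-type, Drd1 and Drd2 nuclei, where a count of 0 allows between 3.74 and 16.9 CPM. The next subtype, subcortical GABAergic, held 24.96, 8.96 and 30.1 CPM, from 3, 3 and 3 UMIs. Grin3a, a subunit that lowers calcium entry, was at 133, 111 and 90.4 CPM in subcortical GABAergic and 16.9, 18.9 and 13.3 CPM in Drd2 striatal nuclei. Parvalbumin-type nuclei were its highest subtype in LPS and poly(I:C), with a mean of 104 CPM against 111 in subcortical GABAergic nuclei. Grin2d reached at most 18.9 CPM in Vip/Adarb2 nuclei, where it gave 7, 8 and 2 UMIs over the 3 libraries. It gave 0 UMIs in every library in upper-layer, Rorb, Ntng2-type, Drd1 and Drd2 nuclei. Thalamic nuclei were its highest subtype in LPS and poly(I:C), with a mean of 9.90 CPM against 13.1 in Vip/Adarb2 nuclei, and these ranges overlapped.

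Grik1 had the steepest pattern of the kainate receptor subunits. It was at 1388, 1316 and 1393 CPM in Vip/Adarb2 nuclei and 758, 801 and 687 CPM in parvalbumin-type nuclei. Upper-layer nuclei held 40.6, 17.5 and 35.2 CPM, near the endothelial background of 45.9, 27.8 and 27.6. The mean in the highest subtype was 8.62 times the median subtype. Grik2, a pore-forming subunit found widely in the forebrain, was at 3702, 3692 and 3436 CPM in Drd1 striatal nuclei, above the 2057, 2243 and 2461 of Drd2 striatal nuclei in every library. Grik3, highest by mean in layer 6 corticothalamic nuclei (201, 201 and 237 CPM), differed the other way between these 2 striatal projection neurons, with 18.6, 8.39 and 19.9 CPM in Drd1 and 192, 227 and 173 CPM in Drd2 nuclei. Grik4, a high-affinity subunit that needs a partner of the Grik1 to Grik3 group, was at 398, 350.2 and 379 CPM in layer 6 corticothalamic nuclei, and its next subtype, Ntng2-type, was at 197, 208 and 154 CPM. Grik5, the other high-affinity subunit, was at 259, 227 and 257 CPM in Drd2 and 105, 112 and 86.4 CPM in thalamic nuclei.

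Of the delta receptors, which bind cerebellin-type synaptic organisers, Grid1 ran from 1003, 967 and 796 CPM in Drd1 nuclei down to 333, 274 and 369 CPM in Rorb nuclei. Grid2ip, the interactor, was at 48.1, 73.1 and 21.6 CPM in thalamic nuclei (17, 43 and 3 UMIs), and no other subtype gave more than 15.4 CPM in any library.

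Of the metabotropic receptors, Grm5 couples to phospholipase C. Grm5 was at 4589, 5162 and 4684 CPM in Drd1 and 4464, 5155 and 5094 CPM in Drd2 striatal nuclei, and at 1313, 1519.8 and 1282 CPM in thalamic nuclei, its lowest subtype by mean. Both striatal subtypes exceeded every other subtype in all 3 libraries.

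Grm2 and Grm3 inhibit adenylyl cyclase and sit largely before the synapse or on glia. Grm3 was at 1023, 889 and 1057 CPM in Rorb nuclei and 157, 124 and 134 CPM in Vip/Adarb2 nuclei. Endothelial nuclei gave 408, 202 and 235 CPM, and by mean the values in Vip/Adarb2, parvalbumin-type and thalamic nuclei were at or under this level. Grm3 was also high in astrocyte-gated nuclei, as given under the other observations. The part of glial RNA in the endothelial level was not tested, so these low neuron values cannot be told from free RNA or set below it. Grm2 was sparse, at 35.7, 28.3 and 56.4 CPM in Rorb nuclei (9, 20 and 11 UMIs), and gave 0 UMIs in parvalbumin-type, Vip/Adarb2 and Drd1 nuclei in all 3 libraries. Grm4, Grm7 and Grm8 are mostly presynaptic receptors that reduce transmitter release. Grm4 was at 90.5, 109 and 137 CPM in thalamic nuclei. Grm8 was at 1099.5, 1235 and 1209.8 CPM in layer 6 corticothalamic nuclei against 181, 162 and 115 CPM in thalamic nuclei, its lowest subtype by mean. Grm7 was widespread, at 3844, 3789 and 4207 CPM in Rorb and 3635, 3861 and 3630.1 CPM in thalamic nuclei, which overlapped, and 725, 689.9 and 889 CPM in parvalbumin-type nuclei, below every other subtype.

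The GABA-A alpha subunits hold much of a receptor's drug sensitivity. Gabra4, a partner of the delta subunit in receptors outside the synapse, was at 1439.9, 1509.6 and 1477 CPM in thalamic nuclei. Drd1 and Drd2 striatal nuclei followed at 683, 659.6 and 741 CPM and 659, 721 and 643 CPM, and layer 6 corticothalamic nuclei were lowest at 249, 263 and 270.3 CPM. Gabra5, known from hippocampal and deep cortical neurons and from tonic inhibition, was at 123, 107 and 94.1 CPM in layer 6 corticothalamic nuclei and 6.11, 4.52 and 13.7 CPM in parvalbumin-type nuclei. Its highest subtype was 4.33 times its median subtype, the largest such ratio among the alpha subunits. Gabra2 had the smallest, 1.505. It was at 349, 283 and 350.3 CPM in Drd2 nuclei. Parvalbumin-type nuclei, at 61.1, 67.8 and 41.2 CPM, were above the endothelial level (35.7, 34.8 and 111) in saline and LPS. They were under it in poly(I:C) and by mean. Gabra3 was highest by mean in Ntng2-type nuclei (135, 97.2 and 135 CPM) and lowest in Drd1 nuclei (18.6, 22.4 and 29.8 CPM). By mean the Drd1 value, 23.6 CPM, was under the endothelial level of 28.8 CPM.

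Of the beta subunits, which are needed for assembly, Gabrb2 was at 1089, 1216 and 1030.0 CPM in thalamic nuclei and 994, 1078 and 954 CPM in Vip/Adarb2 nuclei, and these overlapped. Gabrb1 was at 1449, 1575 and 1484 CPM in layer 6 corticothalamic nuclei, above every other subtype in each library, and at 352, 274 and 266 CPM in parvalbumin-type nuclei.

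Gamma subunits anchor receptors at the synapse and form the benzodiazepine site with alpha. Gabrg1 was at 108, 111 and 151 CPM in subcortical GABAergic nuclei and 16.1, 16.99 and 9.28 CPM in layer 6 corticothalamic nuclei. By mean the layer 6 value, 14.1 CPM, was under the endothelial level of 18.96 CPM. Gabrg3 was at 2035, 2572 and 2239 CPM in Drd2 and 325, 254 and 333 CPM in Rorb nuclei. Gabrd, the delta subunit of tonic receptors, was sparse: 48.1, 40.8 and 36.01 CPM in thalamic nuclei, from 17, 24 and 5 UMIs, and 58.1, 42.2 and 18.3 CPM in parvalbumin-type nuclei. These ranges overlapped, and the highest subtype of Gabrd was not the same in every library.

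**Figure D2:**
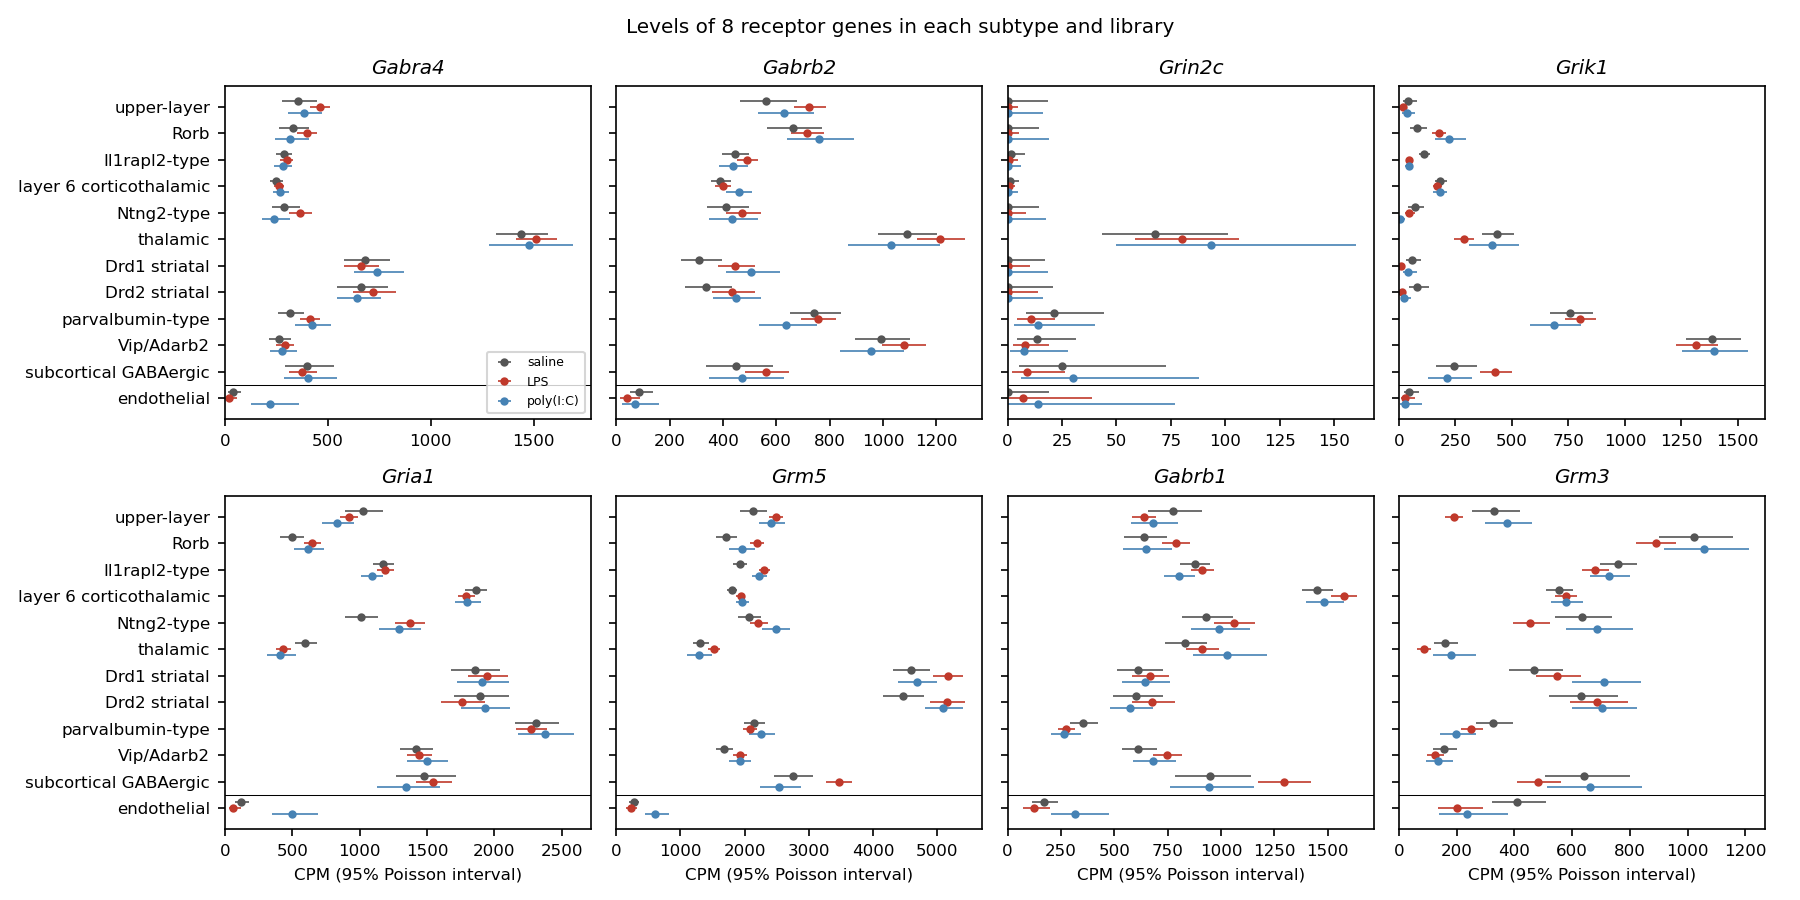
Each panel shows 1 gene; points are its level in CPM in a subtype and library, with exact 95% Poisson intervals, and the bottom row shows endothelial nuclei as background. The 3 libraries lie close together in most subtypes, with Gabra4 and Grin2c highest in thalamic nuclei and Grm5 highest in both striatal subtypes.

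Thalamic nuclei, gated by Slc17a6, Tcf7l2, Lef1, Prkcd and Rgs16, were the highest subtype by mean for 8 members, among them Gabra4, Gabrb2, Gabrd, Grid2ip, Grin2b, Grin2c and Grm4, and for 7 of these 8 in all 3 libraries. They were also the lowest subtype by mean for Gria1, Gria2, Grik5, Grm5 and Grm8. Their name follows the gate, and whether Slc17a6 neurons from outside the thalamus entered it was not tested. The shares of all genes highest or lowest in thalamic nuclei were not counted, so these numbers do not set the receptor genes apart. Since Tcf7l2 and Lef1 encode TCF/LEF factors, the 250 bases before the annotated start of these genes were searched for the TCF/LEF core CTTTGAT on either strand. RefSeq promoters (build GRCr8, not the build of the counts) were matched for 28 of 44 members and 5 of these 8. The core was found in 1 of the 28, Gabrb2, and in 3.15% of 33469 promoters. A match describes these letters and shows no binding, and a window without it says nothing on the factors. The Gabrb2 window (chr10:27439543-27439792, plus strand) is shown with the match in capitals, beside those of Gabra4 (chr14:36944497-36944746, plus strand) and Grin2c (chr10:101005139-101005388, minus strand), whose thalamic values exceeded those of every other subtype. Each is written 5′ to 3′ on the strand of its gene.
Gabrb2: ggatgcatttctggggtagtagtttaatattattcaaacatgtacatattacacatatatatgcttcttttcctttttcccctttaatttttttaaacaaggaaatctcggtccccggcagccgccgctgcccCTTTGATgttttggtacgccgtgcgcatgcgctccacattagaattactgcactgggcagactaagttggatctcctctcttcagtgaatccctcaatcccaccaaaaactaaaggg
Gabra4: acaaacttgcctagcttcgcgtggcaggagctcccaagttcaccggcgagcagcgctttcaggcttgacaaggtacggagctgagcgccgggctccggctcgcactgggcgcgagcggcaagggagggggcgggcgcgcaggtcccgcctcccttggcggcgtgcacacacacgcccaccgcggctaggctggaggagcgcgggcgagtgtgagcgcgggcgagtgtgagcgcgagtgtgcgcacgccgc
Grin2c: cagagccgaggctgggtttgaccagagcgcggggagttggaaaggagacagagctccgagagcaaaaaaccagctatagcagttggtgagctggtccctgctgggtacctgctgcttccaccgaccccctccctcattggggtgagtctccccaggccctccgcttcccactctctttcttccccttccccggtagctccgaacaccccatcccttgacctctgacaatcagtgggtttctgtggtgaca
Gabra4 has 33 CpG dinucleotides in this window, whereas Gabrb2 and Grin2c have 8 each, against a median of 5 over all promoters. The GC content of the windows is 71.6% for Gabra4, 43.2% for Gabrb2 and 59.6% for Grin2c.

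Pairs of alternative subunits showed the same differences as ratios of UMIs within a library, which do not depend on depth. These ratios compare subtypes and do not give the makeup of receptors, since genes differ in length. Grin2a to Grin2b was lowest in thalamic nuclei, at 0.425, 0.377 and 0.471. In poly(I:C) subcortical GABAergic, Drd1 and Drd2 nuclei were close to this, at 0.474, 0.476 and 0.477. The ratio was above 1 in Rorb nuclei, at 1.14, 1.19 and 1.32, and in Vip/Adarb2 nuclei, at 1.17, 1.14 and 1.17. The saline interval of the Rorb nuclei, 0.97 to 1.33, included 1. Gria1 to Gria2 was 2.56, 2.36 and 2.77 in parvalbumin-type and 0.353, 0.448 and 0.396 in Rorb nuclei. Gabrb1 to Gabrb2 was 3.71, 3.93 and 3.23 in layer 6 corticothalamic and 0.473, 0.363 and 0.417 in parvalbumin-type nuclei. Parvalbumin-type nuclei were thus the highest subtype for the second ratio and the lowest for the third.

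**Figure D3:**
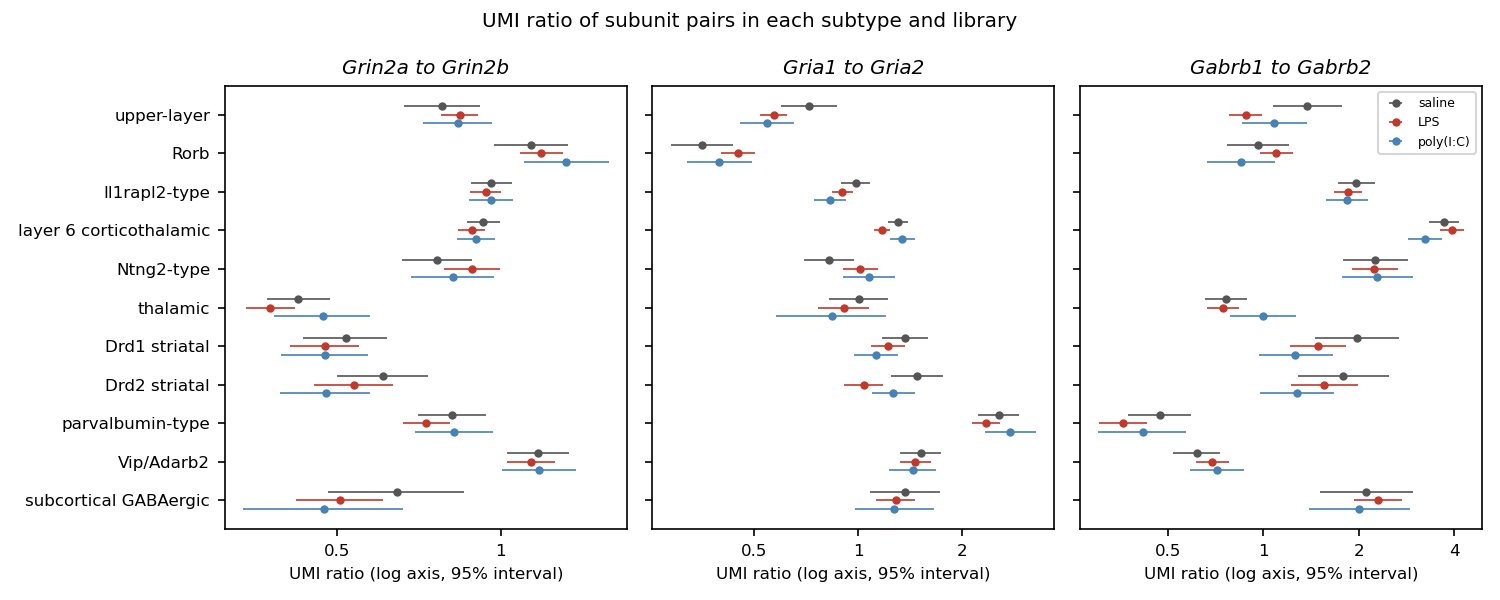
Panels show the ratio of UMIs of 3 subunit pairs on a log axis, with exact 95% counting intervals, for 11 subtypes and 3 libraries. The Gabrb1 to Gabrb2 ratio lies above 3 in layer 6 corticothalamic nuclei of all 3 libraries and under 0.5 in parvalbumin-type nuclei.

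GABA-A genes lie in clusters, and 5 sets of neighbours were found in the RefSeq gene order, among them Gabrg1, Gabra2, Gabra4 and Gabrb1 on chromosome 14, Gabra3 and Gabrq on X, and Gabrr1 and Gabrr2 on 5. Levels were averaged over the 3 libraries and log2-transformed to correlate them. Over the 11 subtypes, which share libraries and depth, Pearson's r was 0.52 for Gabra2 and Gabrb1 and -0.14 for Gabra2 and Gabra4. These neighbours thus did not all follow each other. All 66 pairs of 12 GABA-A members had a median r of -0.10, from -0.80 to 0.88.

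Within the striatum, 30 members were compared between Drd1 and Drd2 nuclei of the same library. Members higher in Drd1 nuclei in all 3 libraries, among them Gabrg1, Grik2, Grin2b, Grin3a and Grm7, were 6 of 30 against 15.6% of all genes. Those higher in Drd2 nuclei, among them Gabra3, Gabrg3, Gria4, Grik3 and Grik5, were again 6, against 14.8%. Grik3 and Grin3a were at least 1.5-fold apart in all 3 libraries, 2 of 30 members against 2.99% of 5623 genes. The Drd1 to Drd2 ratio of Grik3 was 0.097, 0.037 and 0.115, with every interval under 1. That of Grin3a was 2.47, 1.63 and 2.62, with every interval including 1.

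After LPS, no receptor gene was 2-fold apart from saline in either neuron class. In glutamatergic nuclei 0 of 36 members tested were at least 2-fold higher (0.579% of all genes were) and 0 at least 2-fold lower (0.932%), and their median log2 ratio was -0.00 against -0.05 over all genes. In GABAergic nuclei 0 of 34 were 2-fold higher (0.607% of all genes) and 0 lower (0.782%), with a median of 0.03 against -0.03. The highest ratios in glutamatergic nuclei were those of Gabrg1, 1.16 [0.954 to 1.43], Gria4, 1.13 [1.09 to 1.16], and Grm5, 1.12 [1.102 to 1.15], where brackets give the 95% counting interval. The lowest were Grm6, 0.711 [0.338 to 1.52], Grin3a, 0.827 [0.709 to 0.965], and Grik1, 0.863 [0.792 to 0.9398]. For Grm5 the levels were 2016, 2268 and 2196 CPM. In GABAergic nuclei the highest were Grin3a, 1.23 [1.07 to 1.42], Gabra3, 1.22 [1.01 to 1.48], and Gabrg1, 1.202 [1.01 to 1.43]. The lowest were Grin2d, 0.807 [0.4395 to 1.502], Gabrd, 0.867 [0.605 to 1.25], and Grin2a, 0.868 [0.826 to 0.913]. Deep counts make small ratios exclude 1, but the spread between rats is unknown and could be larger.

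After poly(I:C), in glutamatergic nuclei 0 of 35 members were at least 2-fold higher (0.801% of all genes) and 1 was at least 2-fold lower (1.63%). That was Grid2ip, with 16 UMIs against 44 and a ratio of 0.499 [0.263 to 0.902]. The thalamic share of the glutamatergic nuclei moved with it, at 4.43%, 4.60% and 2.67%, and its part in the result was not tested. Grin2c, the other sparse thalamic-high gene, was next lowest at 0.555 [0.307 to 0.964], followed by Grin3a at 0.729 [0.595 to 0.89005]. Within thalamic nuclei Grin2c was at 67.9, 79.9 and 93.6 CPM, whereas Grid2ip was at 48.1, 73.1 and 21.6 CPM, from 17, 43 and 3 UMIs. Among the highest were Grm2, 1.15 [0.834 to 1.57], and Grik5, 1.11 [1.02 to 1.22]. In GABAergic nuclei 0 of 33 were at least 2-fold higher (0.635% of all genes) and 1 at least 2-fold lower (1.78%): Gabrd, with 20 UMIs against 55 and a ratio of 0.473 [0.268 to 0.802]. Parvalbumin-type nuclei, where Gabrd is high, were 10.03%, 12.9% and 8.79% of the GABAergic nuclei; their part in this was not tested. Over the alternative settings the log2 ratio of Gabrd ran from -3.69 to -0.49, and that of Grid2ip in glutamatergic nuclei from -1.29 to -0.58. Next lowest were Grin2c, 0.693 [0.353 to 1.31], and Gabra5, 0.867 [0.598 to 1.25]. The highest were Grm3, 1.24 [1.13 to 1.35], Grik5, 1.16 [1.01 to 1.34], and Grm5, 1.16 [1.12 to 1.197]. Medians were -0.02 in glutamatergic and 0.05 in GABAergic nuclei, against -0.08 and -0.07 over all genes. These comparisons use the same saline library as those of LPS.

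**Figure D4:**
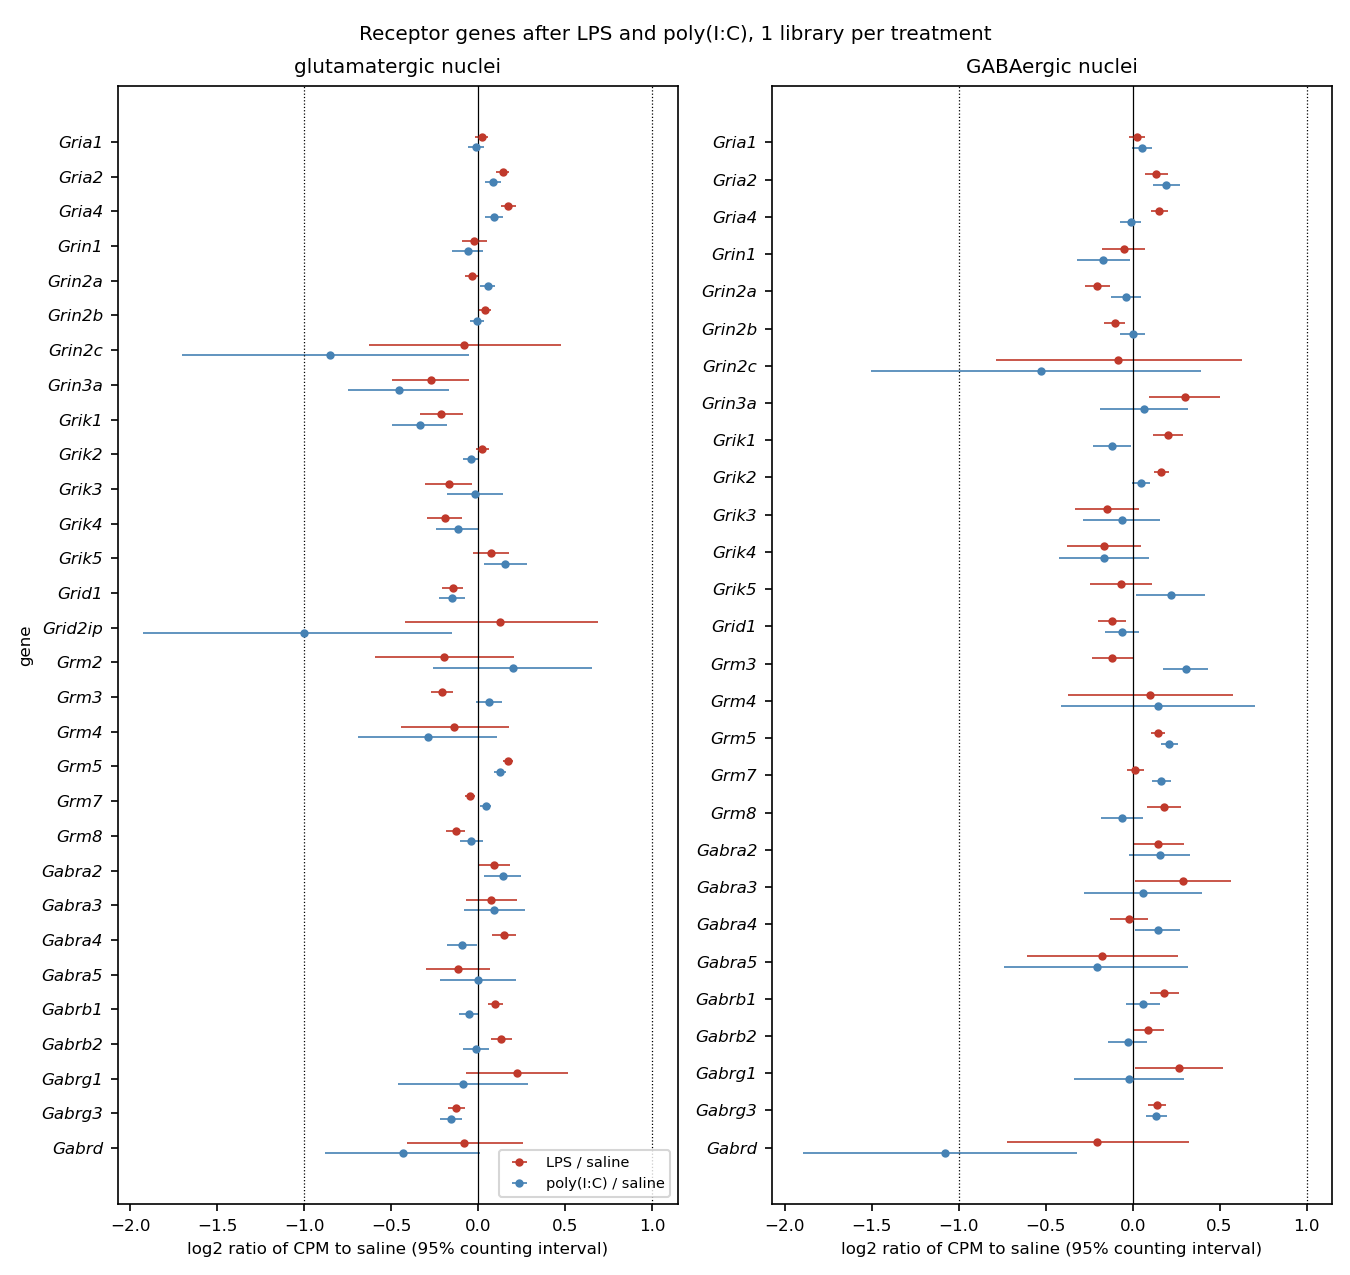
Points are the log2 ratio of CPM to the saline library for each receptor gene reported here with at least 30 UMIs in both comparisons, in glutamatergic (left) and GABAergic (right) nuclei, with 95% counting intervals; dotted lines mark 2-fold. Only Grid2ip (left) and Gabrd (right) reach 2-fold lower after poly(I:C).

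Set directly against poly(I:C), LPS gave 1 of 35 members at least 2-fold higher in glutamatergic nuclei (1.17% of all genes) and 0 at least 2-fold lower (0.904%). It was Grid2ip again, at 2.19 [1.27 to 4.003]. The next highest were Grin2c, 1.704 [1.02 to 2.99], and Gabrd, 1.28 [0.962 to 1.71], and the lowest Grm2, 0.761 [0.5701 to 1.02], and Grm3, 0.8301 [0.792 to 0.871]. In GABAergic nuclei 0 of 34 were 2-fold higher (1.74%) or lower (0.66%). The highest there were Grin2d, 1.86 [0.791 to 5.07], Gabrd, 1.83 [1.11 to 3.17], and Grin2c, 1.36 [0.753 to 2.57], and the lowest Grm3, 0.746 [0.687 to 0.811], Grik5, 0.8198 [0.723 to 0.931], and Grin2a, 0.891 [0.844 to 0.942].

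Within single subtypes Grik1 was past 2-fold in opposite directions. In Rorb nuclei Grik1 was at 79.3, 175 and 221 CPM (20, 124 and 43 UMIs), a ratio to saline of 2.21 [1.37 to 3.74] after LPS and 2.78 [1.601 to 4.99] after poly(I:C). This was 1 of 27 of the members tested there that were 2-fold higher after LPS (2.44% of all genes) and 1 of 27 after poly(I:C) (1.47%). In Il1rapl2-type nuclei Grik1 was at 112, 45.8 and 43.6 CPM, a ratio of 0.411 [0.286 to 0.586] and 0.3904 [0.241 to 0.614]. Grik1 alone, 1 of 31, was 2-fold lower there after LPS (1.22% of all genes) and 1 of 29 after poly(I:C) (1.46%). The saline value stood apart from the other libraries in both subtypes, and the Rorb value rests on 20 saline UMIs. With gates on unscaled marker counts the Rorb log2 ratios fell to 0.08 and 0.39, from 1.14 and 1.48, and with doublets by the automatic threshold to 0.39 and 0.74. In the same way the Il1rapl2-type ratios moved from -1.28 and -1.36 to -0.92 and -0.50 with unscaled gates. Slc17a6, a thalamic marker, gave 6, 11 and 3 UMIs in the Rorb nuclei, or 23.8, 15.6 and 15.4 CPM. These counts are too few to rank the libraries. Grik1 was also high in thalamic nuclei, and the part of such nuclei in the result was not tested.

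Summed over the 11 subtypes, 1 of 314 tests of a member were 2-fold higher after LPS (1.69% of those of all genes) and 3 of 314 lower (1.41%). After poly(I:C) 1 of 294 were higher (1.01%) and 3 of 294 lower (1.85%). The counting interval excluded 1 in each of these, and besides Grik1 they were the following. After LPS, Grm8 was at 0.492 [0.384 to 0.632] in upper-layer nuclei, from 502, 247 and 361 CPM; 1 of 25 were lower by that much there, against 2.14% of all genes. Upper-layer nuclei of the LPS library had 824 against 1258 and 1311 CPM of their own marker set, and the part of this lower marker level in the result was not tested. Grin3a was lower in layer 6 corticothalamic nuclei after LPS, at 0.404 [0.225 to 0.707], and after poly(I:C), at 0.2803 [0.105 to 0.6405], from 35, 22 and 7 UMIs. It was 1 of 31 members 2-fold lower after LPS (0.844% of all genes) and 1 of 29 after poly(I:C) (1.62%). Grik5 was at 0.352 [0.128 to 0.842] after poly(I:C) in subcortical GABAergic nuclei, with 7 UMIs against 24; 1 of 25 were that low there, against 2.49% of all genes. Over the alternative settings the log2 ratio of Grm8 ran from -1.12 to -0.56, and that of Grin3a from -1.70 to -0.17 after LPS and from -2.49 to -0.50 after poly(I:C).

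Between LPS and poly(I:C), 7 of 309 tests over the subtypes were 2-fold higher in LPS (2.67% of those of all genes) and 1 of 309 lower (1.21%). Gabra3 was at 2.01 [1.03 to 4.38] in upper-layer nuclei, where 1 of 25 were 2-fold higher (4.1% of all genes). Gabra3 was at 2.08 [1.13 to 4.12] in Vip/Adarb2 nuclei, where 1 of 30 were (1.84%). Gabrg1 was at 2.61 [1.21 to 6.44] in Il1rapl2-type nuclei, with 1 of 30 (1.68%). In subcortical GABAergic nuclei Grik1 was at 2.01 [1.27 to 3.35] and Grik5 at 2.29 [1.04 to 5.98], with 2 of 29 (3.83%). In thalamic nuclei Grid2ip was at 3.38 [1.08 to 17.05], from 43 against 3 UMIs, with 1 of 31 higher (4.82%), and Grm3 at 0.472 [0.287 to 0.796] with 1 of 31 lower (1.87%). Gabrd in parvalbumin-type nuclei was also past 2-fold, at 2.301 [0.805 to 9.03], with an interval that includes 1. Over the alternative settings the log2 ratio of Gabra3 ran from 0.80 to 1.13 in upper-layer and from 0.33 to 1.68 in Vip/Adarb2 nuclei, and that of Gabrg1 in Il1rapl2-type nuclei from 0.29 to 2.44. In subcortical GABAergic nuclei it ran from 0.52 to 1.07 for Grik1 and from 0.81 to 1.32 for Grik5, and in thalamic nuclei from -1.40 to -0.77 for Grm3. All of these fell short of 2-fold under at least 1 setting. Grid2ip in thalamic nuclei ran from 1.16 to 2.44, but over only 6 values, against up to 11 for ratios in the neuron classes. The settings that gave no value could not test Grid2ip, so this range does not show it to be more stable than the others. All the ratios between LPS and poly(I:C) given here rest on 1 library each and most on few UMIs.

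Other postsynaptic genes, scaffolds, auxiliary subunits, adhesion molecules and chloride transporters from a list of 65 found genes, were counted the same way. After LPS 0 of 60 tested were 2-fold higher (0.579% of all genes) and 0 lower (0.932%) in glutamatergic nuclei, with a median log2 ratio of -0.02, and 0 of 57 were higher (0.607%) or lower (0.782%) in GABAergic nuclei. After poly(I:C) 0 of 59 were higher (0.801%) or lower (1.63%) in glutamatergic nuclei. In GABAergic nuclei 0 of 57 were higher (0.635%) and 1 was lower (1.78%), Nptx1, a secreted pentraxin that clusters AMPA receptors, with 14 UMIs against 39. Homer1, a scaffold that links Grm5 to calcium stores and whose short form is induced by activity, was at 552, 449.9 and 707 CPM in glutamatergic nuclei, a ratio to saline of 0.816 [0.782 to 0.851] after LPS and 1.28 [1.22 to 1.34] after poly(I:C). Cacng4, an AMPA receptor auxiliary subunit, was at 0.504 [0.377 to 0.672] and 0.552 [0.378 to 0.793]. In GABAergic nuclei after LPS, Homer1 was at 1.01 [0.928 to 1.11] and Cacng4 at 0.726 [0.547 to 0.964]. Counts per gene do not separate the short form of Homer1.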

How the data were processed

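Single-nucleus RNA was measured in 3 libraries (saline, LPS, poly(I:C)), each a pool of 4 rats. The files deposited by the authors give, for each barcode and gene, the raw count of UMIs. The submitters' processing notes name Cell Ranger 7.0.0 and the build mRatBN7.2, and the annotation release and the counting of intronic reads are not given in the sources used here. No columns of other samples were used.

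Nuclei needed 500 or more detected genes and no more than 5% of UMIs from mitochondrial genes. Scrublet (scanpy 1.11.5) scored doublets, and the highest-scored share expected at 0.8% per 1000 nuclei was left out (17.1%, 8.38% and 10.5%), because its automatic threshold took 4.29%, 12.1% and 5.36%. A neuron class needed at least 2 UMIs of its markers, at least 4 times as many as of the other class, and non-neuronal markers at no more than 0.5% of UMIs. A subtype needed at least 2 UMIs of its set and at least 2 times every other set after scaling by the class mean; striatal projection nuclei were split into Drd1 and Drd2 by at least 1 UMI of 1 set and at least 3 times the other; 50 nuclei in every library were required. Of 116 marker symbols 7 were not found. UMIs were summed per library and subtype and divided by all their UMIs (CPM). Intervals are exact Poisson for levels and exact conditional binomial (Clopper-Pearson) for ratios, at 95%. A gene was tested with at least 30 UMIs over the libraries compared and called past 2-fold. The ratio and its interval were checked on simulated Poisson counts for LPS against saline in glutamatergic nuclei. Such counts hold no spread between rats, so this checks the calculation only. Python 3.11.15, numpy 2.4.6, scipy 1.17.1, pandas 2.3.3 and matplotlib 3.10.9 were used.

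The members, lists and markers were chosen with earlier results of these data known. Every member with at least 30 UMIs was accounted for; in each family the steepest and flattest by the ratio of highest to median subtype, in each comparison the 3 highest and lowest of each class and those past 2-fold with an interval excluding 1, and 6 subunit pairs were named by rule. Some of these members and pairs are not reported here. Other values were chosen after they were seen. Alternatives changed the doublets, gene and marker minimums, UMI minimum, centring, free RNA, thinning, gate scaling, fold, doublet threshold and weight of subtypes. RefSeq gene order and promoters (GRCr8) gave neighbours and sequences.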

Additional observations from a re-analysis of the deposited data

Results flagged for a closer look

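Grik1, a kainate receptor subunit, differed from saline in opposite directions in 2 glutamatergic subtypes. The ratio of CPM to saline after LPS was 2.21 in Rorb nuclei and 0.411 in Il1rapl2-type nuclei, and after poly(I:C) it was 2.78 and 0.39. With gates on unscaled marker UMIs none of these was past 2-fold: the log2 ratios became 0.08 in Rorb and -0.92 in Il1rapl2-type nuclei after LPS, and 0.39 and -0.50 after poly(I:C). Each value sets 1 library against 1 library, the saline library is the same in all of them, and the difference between the subtypes was not tested.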

How the results depend on the processing

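Over all alternatives the median log2 ratios of the members in the 2 neuron classes lay between -0.07 and 0.12. Of the values that answer a comparison, 178 stayed the same, 22 moved and 0 reversed. The last number was fixed in advance, since only a value whose interval excluded 0 could count as reversed, and no class median had one. Medians near 0 did change sign. The LPS to saline median ran from -0.019 to 0.047 in glutamatergic nuclei. That of poly(I:C) to saline ran from -0.044 to 0.061 there, and that of LPS to poly(I:C) from -0.066 to 0.067 in GABAergic nuclei. Centring moved the poly(I:C) to saline median in glutamatergic nuclei to 0.0606. The other moves were counts of 1 or fewer members that became 0, 1 or 2. Members 2-fold lower after poly(I:C) in glutamatergic nuclei became 0 with at least 1000 detected genes, 3 marker UMIs, 100 UMIs, centring, thinning to 1000 UMIs or equal weight of subtypes, and 2 with a fold of 1.5 or the automatic doublet threshold. In GABAergic nuclei they became 0 with doublets kept, 1000 genes, 100 UMIs, the automatic threshold or equal weight. Members 2-fold lower after LPS in GABAergic nuclei became 1 with equal weight. Members 2-fold higher in LPS than in poly(I:C) became 0 in glutamatergic nuclei with 1000 genes, 100 UMIs or thinning and 2 with 3 marker UMIs or a fold of 1.5, and in GABAergic nuclei 1 with 1000 genes and 2 with a fold of 1.5. The automatic threshold and equal weight were chosen after seeing the data.

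Of the single-gene log2 ratios whose interval excluded 0, 13 values changed sign. With equal weight these were Gabrg1 after LPS in GABAergic nuclei (-0.185), Grik5, Grin2c and Grin3a after poly(I:C) in glutamatergic nuclei (-0.0187, 0.415 and 0.0801), Grik5 after poly(I:C) in GABAergic nuclei (-0.177) and Grin2c between LPS and poly(I:C) in glutamatergic nuclei (-0.203). With thinning they were Gabra3 after LPS in GABAergic nuclei (-0.0576), Grik5 after poly(I:C) in glutamatergic nuclei (-0.0647) and Grik5 between LPS and poly(I:C) in GABAergic nuclei (0.104). With 1000 genes they were Grik5 and Grm3 after poly(I:C) in GABAergic nuclei (-0.0352 and -0.0456) and Grik5 and Grin2a between LPS and poly(I:C) in GABAergic nuclei (0.0301 and 0.0167). Ratios whose interval included 0 changed sign too, among them Grin2c between LPS and poly(I:C) in GABAergic nuclei (-0.548), Gabrd between them in glutamatergic nuclei (-0.126), and after poly(I:C) Grm2 in glutamatergic (-0.389) and Gabra5 in GABAergic nuclei (0.339). The cause was not tested. Only 5 subtypes reached 50 nuclei in every library with 1000 genes, 3 marker UMIs or thinning, and 9 with unscaled gates. No paired analysis was possible because each treatment has 1 library, so no replicate could be left out either.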

Other observations

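Several receptor genes were also read in astrocyte-gated nuclei, of which the LPS library held 142 and the others 30 and 16, too few to compare. In the LPS library these nuclei had 2513 CPM of Gabrb1, 1350.1 CPM of Grm3, 402 CPM of Gabrg1 and 259 CPM of Grin2c. The highest neuron subtype of that library was at 1575, 889, 111 and 79.9 CPM for the same genes. The gate took only nuclei without a UMI of the neuron class markers, and the median depth of these nuclei was 807 UMIs.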
